A study of Mus musculus with 13 samples.

Results

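The Notch pathway was followed through 33 genes named by symbol. They were 4 receptors, 5 ligands, 3 fringe glycosyltransferases, 5 processing proteases or their partners and 2 nuclear partners. The others were 7 genes grouped as targets, 6 modulators, and Atoh1, a gene that Notch signalling keeps down. Each gene was represented by 1 probe set that names it alone, the one with the highest mean over the arrays, and 32 of the 33 had such a probe set among the 17097 genes of the table. Jag2 had none and was not analysed here. Gene expression was read on 13 Affymetrix arrays in cells of Lgr5-EGFP-ires-CreERT2 mice on a C57BL/6 background, in which GFP is made from the promoter of Lgr5, a gene of cycling stem cells. GFPbright (4 arrays) and GFPdim (3 arrays) are crypt cells of the small intestine sorted for strong or weak GFP, called GFP_High and GFP_Low in the study and described there as stem cells and their close descendants. Villus (3 arrays) is villus epithelium, and the sources do not settle whether it passed a sorting gate. The hair follicle group (3 arrays) holds sorted GFP cells of the skin, named GFPdim in the titles. All groups carry the same knock-in allele, ages are not given, and the design states that a sort of GFP cells or villus cells pooled 3 mice.

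In Notch signalling a ligand of the Delta or Jagged family on one cell binds a Notch receptor on its neighbour, fringe enzymes that add sugars to the receptor tune which ligand it answers, and 2 cuts, by an ADAM protease and by gamma-secretase, free the intracellular part of the receptor. That part enters the nucleus, joins Rbpj and a Mastermind protein, and turns on genes of the Hes and Hey families and Nrarp. In the intestinal crypt, Notch signalling maintains stem and progenitor cells, and Hes1 represses Atoh1, the factor that starts the secretory lineages, whose cells in turn display Delta ligands. In skin, Notch signalling takes part in the differentiation of keratinocytes and in hair follicle maintenance.

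Values are probe set intensities on a linear scale, which the authors normalized across arrays. Their median was 7.8 to 8.7 per array, and the log2 values of arrays of 1 group correlated at 0.978 to 0.994 across genes, which are not independent replicates. To mark where signal ends, 86 probe sets for smell, pheromone and bitter taste receptors, which these cells are not known to use, were ranked by mean log2 value, and their 95th percentile, an intensity of 7.55, is called the receptor level. Lgr5, the gene that drives GFP, read 793, 533, 576 and 697 in GFPbright, 12.6, 66.1 and 14 in GFPdim, 6.8, 4.8 and 6.6 in Villus and 479, 539.7 and 687 in the hair follicle, so that the crypt arrays followed their titles, and the hair follicle arrays lay with GFPbright although their titles name GFPdim cells. A label field for the Lgr5 level goes against the titles of GFPbright 2, GFPdim 2 and GFPdim 3, and reads high for Villus and the hair follicle. The tests of the members and of the other pathway genes were therefore also run without those 3 crypt arrays. That fit leaves GFPdim 1 as the only GFPdim array, so only log2 differences are quoted from it on its own. Each of the 6 measured enterocyte markers was above the receptor level on every Villus array, and each of the 7 measured keratinocyte and bulge markers on every hair follicle array. That level alone does not set the groups apart. All 6 enterocyte markers were also above it on every GFPdim array and 5 on every GFPbright array. Among the keratinocyte and bulge markers, 2 were above it on every GFPbright and GFPdim array and 3 on every Villus array. All 6 enterocyte markers were higher in Villus than in GFPdim, and 6 of the 7 others were higher in the hair follicle than in GFPbright (limma).

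Over the 4 groups, 27 of the 32 measured members differed (limma, moderated F test, adjusted p under 0.05), against 64.9% of all genes. The 5 others were Notch2, Notch4, Dll3, Mfng and Hey2, which lay near or under the receptor level. In GFPdim against GFPbright 8 of 32 members passed the test, 4 higher and 4 lower, where 16.7% of all genes passed, 6.32% higher and 10.4% lower (1080 and 1773 genes, or 1380 and 1410 after quantile normalization). In Villus against GFPdim it was 15 members, 7 higher and 8 lower, where 42.1% of all genes passed, 20.8% higher and 21.3% lower. In Villus against GFPbright 20 members passed, 10 in each direction, where 48.9% of all genes passed, 22.6% higher and 26.3% lower. In the hair follicle against GFPbright 18 members passed, 11 higher and 7 lower, where 48.6% of all genes passed, 19.4% higher and 29.1% lower. Signal level bears on these shares, since 29 of the 32 members had a group mean above the receptor level: among the 12141 genes of which that was true, 23.3%, 57.2%, 65.8% and 66.1% passed in the 4 comparisons, against 25%, 46.9%, 62.5% and 56.2% of the members, so that the members did not pass more often than genes of clear signal in the last 3. The median absolute log2 difference of the members was 0.23, 0.40, 0.56 and 0.57 in these 4 comparisons, and that of all genes was 0.19, 0.35, 0.41 and 0.40. The medians of all genes include genes under the receptor level. They are not matched to the members in signal, so no larger change of the members is read from them. No separate count of members is given without the 3 arrays with conflicting labels, since GFPdim 1 is then the only GFPdim array. Counts and ranges over all alternatives do include that fit. Comparisons that share the GFPbright, GFPdim or Villus arrays are not independent of each other. In these bulk samples, fewer cells of a type and less RNA per cell cannot be told apart.

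**Figure D1:**
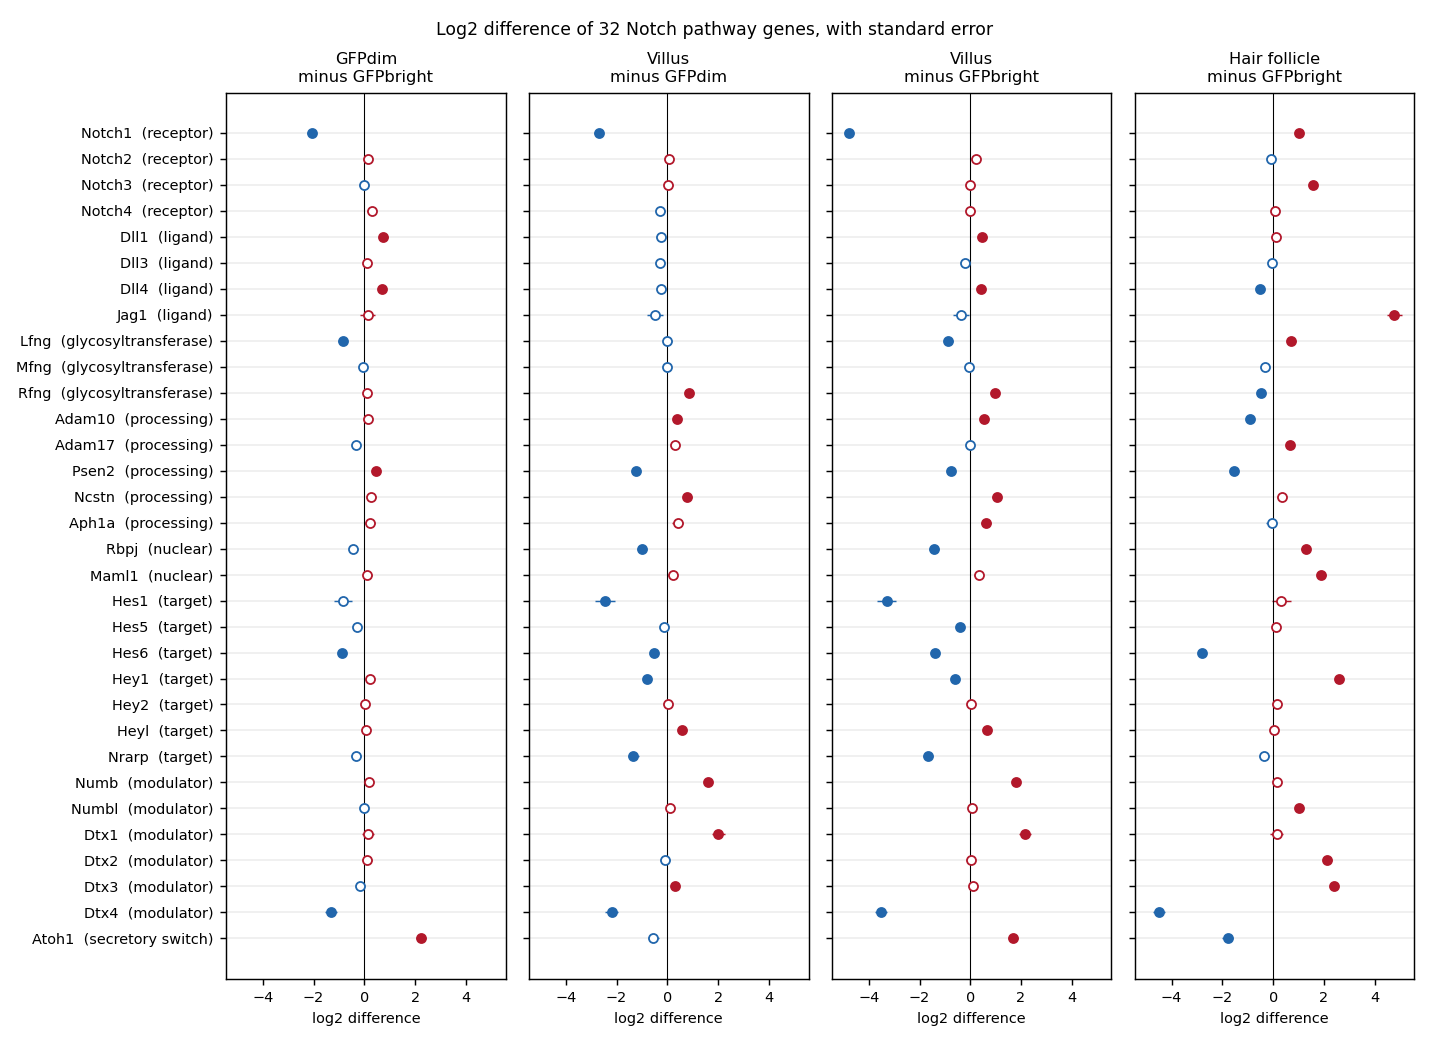
Log2 difference (x axis) with its standard error for each of the 32 measured Notch pathway genes (y axis, with the role of each gene) in 4 comparisons of limma. Red points lie above 0, blue points lie below 0, and filled points passed an adjusted p under 0.05. Notch1 and Dtx4 lie far to the left in all 3 intestinal panels, and Jag1 has the largest difference to the right, 4.76 in the hair follicle.

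Promoter sequences of RefSeq (GRCm38.p6) were at hand for 27 members, with 33 start sites. The 250 bases before the start are shown for Notch1, Lfng and Hes6, which were lower in GFPdim than in GFPbright, and for Atoh1, which was higher, each read 5′ to 3′ on the strand of its gene. Capitals mark the letters TGGGAA, the core of the sequence that RBPJ binds, or their reverse complement TTCCCA.
Notch1: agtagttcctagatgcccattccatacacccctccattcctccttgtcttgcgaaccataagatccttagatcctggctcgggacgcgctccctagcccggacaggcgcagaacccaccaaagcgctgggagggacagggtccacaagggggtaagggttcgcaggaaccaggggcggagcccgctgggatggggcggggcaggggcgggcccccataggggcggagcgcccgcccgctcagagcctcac
Lfng: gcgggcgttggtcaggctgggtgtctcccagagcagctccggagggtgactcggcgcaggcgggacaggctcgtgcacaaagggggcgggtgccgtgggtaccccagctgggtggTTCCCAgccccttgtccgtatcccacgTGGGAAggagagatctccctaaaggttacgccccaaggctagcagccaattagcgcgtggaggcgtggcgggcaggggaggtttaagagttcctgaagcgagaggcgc
Hes6: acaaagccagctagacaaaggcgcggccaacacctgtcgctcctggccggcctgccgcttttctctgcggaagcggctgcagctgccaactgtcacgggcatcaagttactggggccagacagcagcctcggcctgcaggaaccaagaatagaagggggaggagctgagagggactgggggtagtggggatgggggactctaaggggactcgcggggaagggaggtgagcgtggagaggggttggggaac
Atoh1: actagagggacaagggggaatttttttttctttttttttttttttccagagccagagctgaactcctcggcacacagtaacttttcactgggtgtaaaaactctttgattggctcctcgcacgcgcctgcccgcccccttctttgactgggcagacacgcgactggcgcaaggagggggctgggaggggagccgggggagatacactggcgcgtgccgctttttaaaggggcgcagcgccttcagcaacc
Lfng holds both forms, beginning 135 and 108 bases before its start, and the other 3 hold neither. The windows lie at chr2:26503823-26504072 (minus strand) for Notch1, chr5:140607091-140607340 (plus) for Lfng, chr1:91414039-91414288 (minus) for Hes6 and chr6:64728875-64729124 (plus) for Atoh1. Of the 33 promoters of members, 7 (21.2%) held the letters on either strand, in 6 genes (Psen2, Hes5, Rbpj, Dtx2, Lfng and Hey2), against 21.6% of 32851 promoters of all genes. CACNAG, the letters of the sequence that Hes repressors bind, were in 36.4% and 36.7%. A match describes these letters in this window only.

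Of the receptors, only Notch1 was read well above the receptor level on the intestinal arrays. With the probe set used, Notch1 fell at each step away from the GFPbright cells. Notch1 (chr2:26457902-26503822, minus strand, GRCm38.p6), the receptor best known from the crypt, read 578, 632, 532 and 557 in GFPbright, 104, 165 and 144 in GFPdim and 24.7, 18 and 20.1 in Villus. On the hair follicle arrays it read 1309, 1112 and 1050.0. No array of 1 group overlapped another group. Notch1 was 4.25-fold lower in GFPdim than in GFPbright (log2 difference -2.09 ± 0.16, SE of the fit, n = 3 and 4, limma, adjusted p = 1.16e-06), 6.51-fold lower in Villus than in GFPdim (-2.70 ± 0.17, adjusted p = 2.19e-08) and 2.01-fold higher in the hair follicle than in GFPbright (1.01 ± 0.16, adjusted p = 0.000112). Each of these calls held under all 21 alternatives run for it, but Villus against GFPdim gave -1.46 (adjusted p = 2.47e-05) with the mean of both Notch1 probe sets, and the GFPdim and Villus values of the other probe set overlapped.

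The probe sets of the other receptors read near or under the receptor level in the intestine. Notch3, a receptor of vessel wall cells and of the epidermis, read 6.7 to 8.0 on the intestinal arrays and 22.9, 15.3 and 28.7 in the hair follicle. It was 2.95-fold higher there than in GFPbright (1.56 ± 0.17, adjusted p = 2.69e-06). Its other probe set, above the receptor level on no array, read 4.0 to 4.3 in GFPbright and 5.2, 6.5 and 7.5 in the hair follicle. Of 9 connective tissue genes, Col1a1, Col3a1 and Dcn were also higher there, 5 (Pdgfrb and Rgs5 of vessel wall cells among them) were above the receptor level on no hair follicle array, and the summed intensity was 112.2, 92.9 and 136.0, in the array order of Notch3, against 50.9 to 122.3 in GFPbright. The part of connective tissue in the value of Notch3 was not tested. Notch2, which acts with Notch1 in crypt progenitors, read 7.1 to 10.2 over all 13 arrays, next to the receptor level, and passed the test in no comparison. Notch4, a receptor of endothelium, was above the receptor level on 1 array (8.4 in GFPdim 1), and 7 of 8 endothelial markers were above that level on no GFPbright or GFPdim array.

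**Figure D2:**
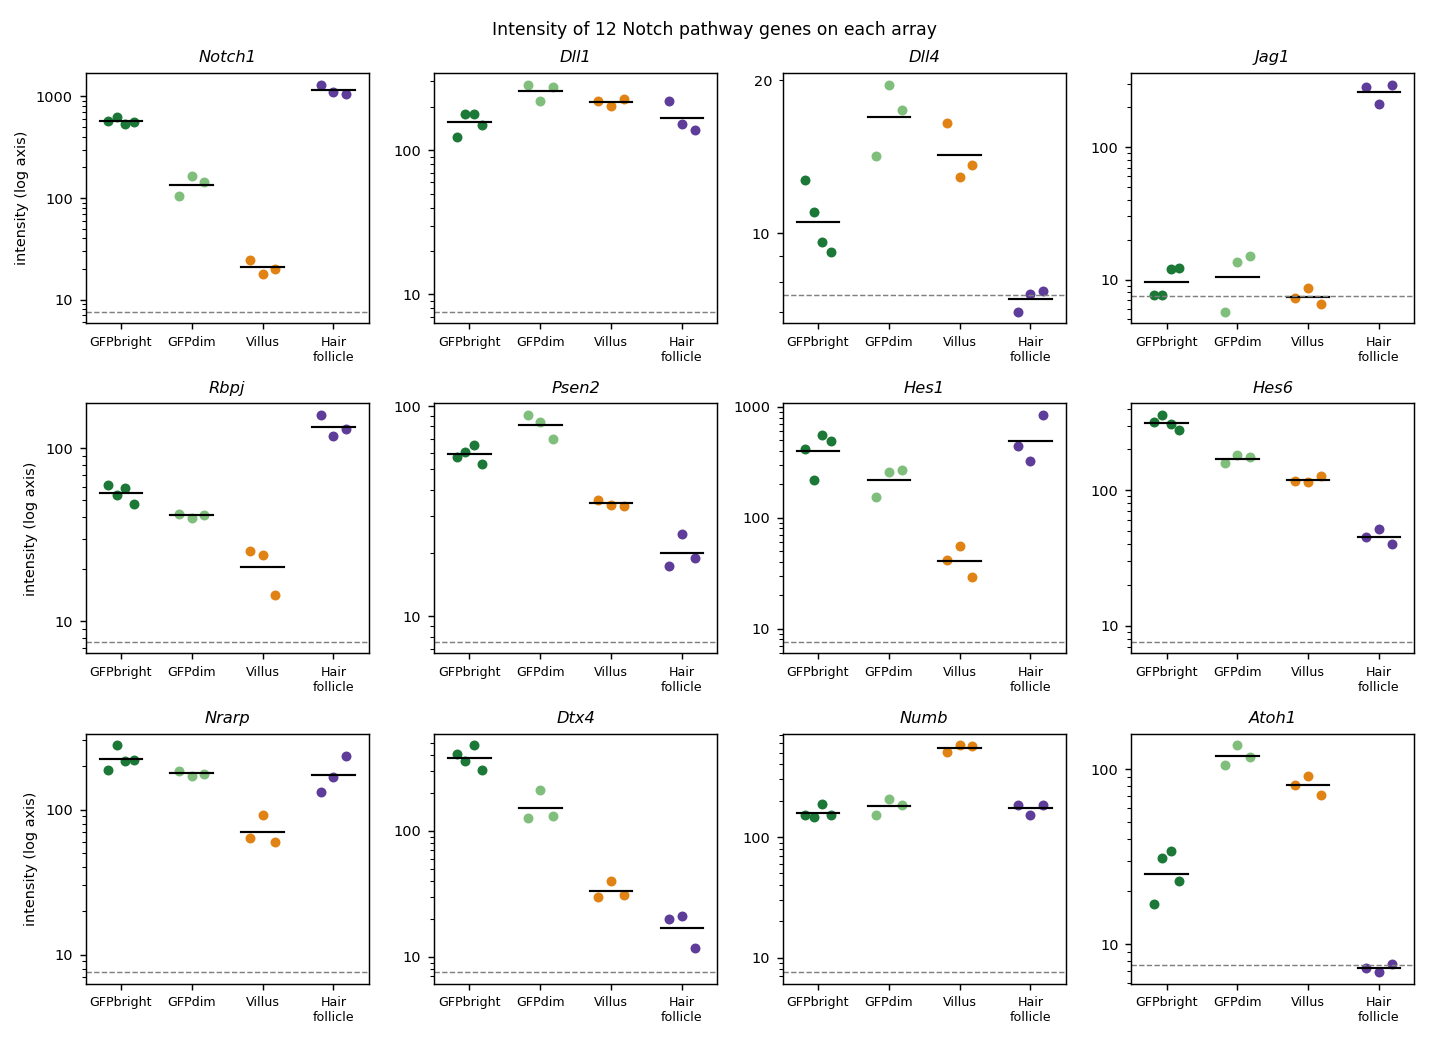
Intensity (log y axes, which differ between panels) of 12 Notch pathway genes on each of the 13 arrays, by group (x axes). Points are arrays, bars are means of the log2 values, and a dashed line marks the receptor level of 7.55. Notch1 and Dtx4 step down from GFPbright to GFPdim to Villus, Atoh1 is highest in GFPdim, and Jag1 is high in the hair follicle alone.

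Among the ligands, Dll1 and Dll4 of the Delta family were higher in GFPdim than in GFPbright, and Jag1 was high in the hair follicle. Dll1 read 124, 178, 179 and 149.5 in GFPbright, 286, 220.3 and 276 in GFPdim, 219.7, 202 and 226 in Villus and 219, 152 and 139 in the hair follicle. All 3 GFPdim arrays were above all 4 GFPbright arrays. The difference was 0.73 ± 0.18 (1.66-fold, adjusted p = 0.0109), and in Villus against GFPbright it was 0.47 ± 0.18 (adjusted p = 0.0401), a call lost under 6 of 21 alternatives, with adjusted p of 0.0578 to 0.12 when any one of GFPbright 1 or 4 or the 3 Villus arrays was left out. Dll4 read 12.7, 11, 9.6 and 9.2 in GFPbright and 14.2, 19.6 and 17.5 in GFPdim, again without overlap. It read 16.5, 12.9 and 13.6 in Villus and 7, 7.6 and 7.7, at the receptor level, in the hair follicle.

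Dll4 was 1.61-fold higher in GFPdim than in GFPbright (0.69 ± 0.15, adjusted p = 0.00598). Without the 3 arrays with conflicting labels, which leaves GFPdim 1 as the only GFPdim array, the difference was 0.45. In Villus against GFPbright the difference was 0.44 ± 0.15 (adjusted p = 0.0253), with adjusted p = 0.0638, 0.0749 and 0.128 without GFPbright 3, GFPbright 4 and Villus 1. Its level in GFPbright exceeded that in the hair follicle 1.42-fold (log2 -0.51 ± 0.15, adjusted p = 0.0111). Markers of secretory cells differed between the same groups. The summed intensity of the 6 measured goblet cell genes was 1585.3 to 2946.8 in GFPbright and 25573.6 to 29581.9 in GFPdim, that of 7 enteroendocrine genes was 160.4 to 297.2 and 4310.0 to 5413.7, and that of 3 Paneth cell genes was 711.4 to 1438.2 and 5024.8 to 9239.9. All 6 goblet and all 7 enteroendocrine genes were higher in GFPdim (limma), as were Mmp7 and Itln1 of the 3 Paneth cell genes. The Paneth sum is mainly that of Itln1, which read 599.6 to 1325.7 in GFPbright and 3835 to 7992.6 in GFPdim. Lyz1 did not pass, with overlapping values of 13.3 to 24.6 in GFPbright and 12.3 to 51.6 in GFPdim. All 16 genes were above the receptor level on every GFPdim array. Their part in the values of Dll1 and Dll4 was not tested.

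Jag1, the ligand of the Jagged family that was measured, read 282, 211 and 296 in the hair follicle. In GFPbright it read 7.6, 7.6, 12 and 12.3, in GFPdim 5.7, 13.5 and 15 and in Villus 7.3, 8.7 and 6.5, so that the intestinal groups overlapped each other around the receptor level. It was 27.1-fold higher in the hair follicle than in GFPbright (4.76 ± 0.30, adjusted p = 7.58e-09). In Villus against GFPdim the difference was -0.49 ± 0.32 (adjusted p = 0.25), and without GFPdim 1, the array with the lowest value, it was -0.93 (adjusted p = 0.00692). Dll3, a ligand that acts inside the cell, read 5.7 to 8.7 over all arrays.

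The fringe genes changed in different directions. Lfng, whose product favours signalling by Delta ligands, read 8.7, 12.7, 12.5 and 12.5 in GFPbright, 6, 7.6 and 5.5 in GFPdim, 7.2, 7.1 and 4.9 in Villus and 17.9, 19.8 and 18.5 in the hair follicle. Values on the GFPdim and Villus arrays overlapped around or under the receptor level, and those in the hair follicle were the highest. Lfng fell by 0.86 on the log2 scale in GFPdim against GFPbright (SE 0.18, adjusted p = 0.00421). Without the 3 arrays with conflicting labels, which leaves GFPdim 1 as the only GFPdim array, the difference was -0.88. It was at least 1.52-fold lower in Villus than in GFPbright (adjusted p = 0.00085). In the hair follicle against GFPbright it was higher (0.71 ± 0.18, adjusted p = 0.00385), but with the mean of its probe sets the difference was 0.17 (adjusted p = 0.311). The other probe set, above the receptor level on no array, did not rise there. That probe set read 5.3, 7.4, 7.0 and 7.3 in GFPbright and 5.4, 4.9 and 5.2 in the hair follicle.

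Rfng read 75.2, 92.1, 87.5 and 76.4 in GFPbright, 88.1, 82.4 and 96.3 in GFPdim, 159.9, 152 and 172 in Villus and 63.2, 65 and 52 in the hair follicle. The 3 Villus arrays stood above all others. It was 1.81-fold higher in Villus than in GFPdim (0.86 ± 0.13, adjusted p = 9.14e-05) and 1.95-fold higher than in GFPbright (adjusted p = 1.09e-05). In the hair follicle it was lower than in GFPbright (-0.46 ± 0.12, adjusted p = 0.00563), a call lost after quantile normalization (-0.14, adjusted p = 0.461). Mfng was above the receptor level on no array.

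Of the genes for receptor cleavage, those of the ADAM proteases and of gamma-secretase changed in different directions. Adam10, the protease of the first cut, read 381, 315, 343 and 377 in GFPbright, 363, 383 and 425 in GFPdim, 550.5, 572 and 426 in Villus and 167, 181 and 215 in the hair follicle. Every hair follicle array was lower than every intestinal array, and the Villus arrays were the highest, with Villus 3 level with GFPdim 3. It was 1.89-fold lower in the hair follicle than in GFPbright (-0.92 ± 0.14, adjusted p = 5.65e-05) and 1.45-fold higher in Villus (0.54 ± 0.14, adjusted p = 0.00463; 0.33 and adjusted p = 0.0691 after quantile normalization). Villus against GFPdim gave 0.39 ± 0.15 (adjusted p = 0.0454), which was lost under 13 of 21 alternatives, with adjusted p of 0.0508 to 0.161 when any one of GFPbright 1, 3 or 4, GFPdim 1 or 2, Villus 1 or 2 or hair follicle 2 was left out. Adam17, a related protease, read 124, 128, 123 and 121 in GFPbright, 86.9, 106 and 107 in GFPdim, 119.7, 128 and 123 in Villus and 171, 209 and 202 in the hair follicle, the group with the highest values. It was higher in the hair follicle than in GFPbright (0.64 ± 0.11, adjusted p = 0.000251). In Villus against GFPdim its adjusted p was 0.0516, 0.0498 with the sort as a block, and 0.0434 or 0.0498 without hair follicle 1 or 2.

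Psen2, a catalytic subunit of gamma-secretase, read 57.5, 60.4, 65.6 and 52.8 in GFPbright, 90.9, 84.2 and 69.6 in GFPdim, 35.9, 34 and 33.5 in Villus and 17.4, 24.6 and 18.9 in the hair follicle, with no overlap between any 2 groups. Its highest values were those of GFPdim. The rise from GFPbright to GFPdim was 0.46 ± 0.14 (adjusted p = 0.0383), a call lost under 9 of 21 alternatives, with adjusted p of 0.0512 to 0.146 when any one of GFPbright 1, 2 or 4, GFPdim 1 or 2 or Villus 1 or 2 was left out. Villus was 2.35-fold lower than GFPdim (-1.23 ± 0.15, adjusted p = 1.1e-05), and the hair follicle was 2.93-fold lower than GFPbright (-1.55 ± 0.14, adjusted p = 3.79e-07). Against GFPbright, Villus was lower by 0.77 (-0.77 ± 0.14, adjusted p = 0.000305; adjusted p = 0.0611 after quantile normalization).

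Ncstn and Aph1a, which encode structural subunits of the same complex, were higher in Villus. Ncstn read 20.9, 17.3, 26.4 and 19 in GFPbright, 20.2, 31.9 and 23.4 in GFPdim, 22.5, 27.4 and 28.5 in the hair follicle and 43, 39.8 and 44.9 in Villus, where all 3 values exceeded those of the other groups. Villus was 2.06-fold higher than GFPbright (1.04 ± 0.17, adjusted p = 0.000144) and 1.72-fold higher than GFPdim (adjusted p = 0.0033). Aph1a read 151, 192, 248 and 212 in GFPbright and 324, 322 and 269 in Villus, a difference of 0.62 ± 0.20 (adjusted p = 0.0201), with adjusted p = 0.0638, 0.0688 and 0.0658 when GFPbright 1, Villus 1 or Villus 2 was left out. GFPdim, with 169, 319 and 225, overlapped both.

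Both nuclear partners were highest in the hair follicle. Rbpj, the DNA-binding partner of the receptor's intracellular part, read 61.3, 53.8, 59.2 and 47.4 in GFPbright, 41.8, 39.7 and 41.1 in GFPdim, 25.3, 24 and 14.1 in Villus and 156, 118 and 130.1 in the hair follicle. None of the 4 groups overlapped with the probe set used. Villus was 2-fold lower than GFPdim (-0.998 ± 0.20, adjusted p = 0.00085; adjusted p = 0.0657 with the mean of both probe sets) and 2.7-fold lower than GFPbright (-1.43 ± 0.19, adjusted p = 1.28e-05), and the hair follicle was 2.42-fold higher than GFPbright (1.28 ± 0.19, adjusted p = 4.18e-05). GFPdim against GFPbright gave -0.43 ± 0.19 (adjusted p = 0.14). Maml1, a Mastermind coactivator, read 71, 55.7, 69.8 and 72.1 in GFPbright, 80.8, 75.9 and 61.7 in GFPdim, 91.6, 89.1 and 72.5 in Villus and 315, 203 and 242 in the hair follicle. The hair follicle arrays stood above all others, 3.73-fold above GFPbright (1.90 ± 0.17, adjusted p = 2.58e-07).

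In Villus 5 of the 7 genes grouped as targets were lower than in GFPbright (Hes1, Hes5, Hes6, Hey1 and Nrarp) and 1, Heyl, was higher. Of all genes, 26.3% were lower and 22.6% higher. Hes6, which counters Hes1, is in this group as a member of the Hes family, and its fall is not read as lower Notch signalling. Hes1, the repressor that acts on Atoh1, read 416, 220.2, 553 and 492 in GFPbright, 155, 257 and 272 in GFPdim, 41.4, 55.7 and 28.9 in Villus and 446, 322 and 848 in the hair follicle. Villus lay below every other array. It was 5.45-fold lower than GFPdim (-2.45 ± 0.39, adjusted p = 0.000139) and 9.8-fold lower than GFPbright (-3.29 ± 0.37, adjusted p = 2.85e-06). The GFPdim arrays overlapped GFPbright through GFPbright 2, and the difference there, -0.85 ± 0.37, did not pass (adjusted p = 0.145). It was -1.13 with the sort as a block (adjusted p = 0.00878) and -1.13 without GFPbright 2 (adjusted p = 0.0455). They are equal because GFPbright 2 is the only array of its sort and adds nothing to this difference in the block fit. Without the 3 arrays with conflicting labels, which leaves GFPdim 1 as the only GFPdim array, the difference was -1.64.

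Genes that respond to cell handling varied beside Hes1. The summed intensity of 9 such genes (Fos, Jun, Egr1, Atf3 and others), all above the receptor level on every array, was 8543.6 to 15816.8 in GFPbright, 12642.4 to 14354.4 in GFPdim, 2931.6 to 3928.3 in Villus and 38691.5 to 51258.4 in the hair follicle. Within GFPbright, Villus and the hair follicle the arrays had the same order by Hes1 as by this sum, and in GFPdim the upper 2 arrays changed places. An order shared with the sum in 3 or more groups was found for 2 of the 32 members, Hes1 and Atoh1 (6.25%), and for 1.46% of all genes outside the list. For Atoh1 these groups included the hair follicle, where it read 7.3, 6.9 and 7.7, around the receptor level. With 2 members and so few arrays per group, no link to handling is read from these shares. The part of handling in the values of Hes1 was not tested.

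**Figure D3:**
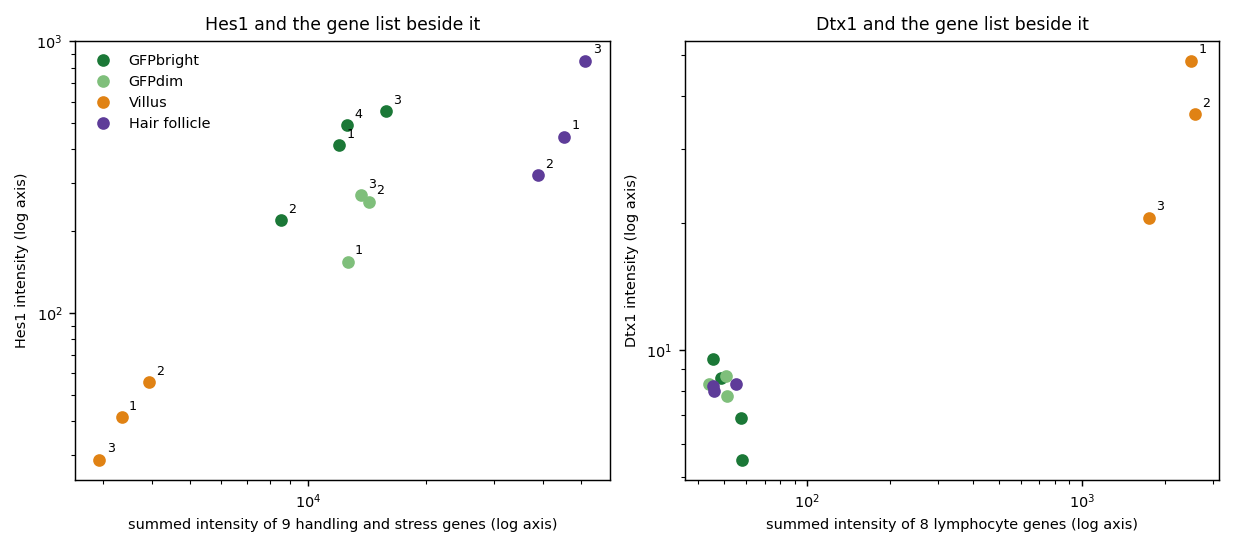
Hes1 intensity against the summed intensity of 9 handling and stress genes (left) and Dtx1 intensity against the summed intensity of 8 lymphocyte genes (right), each point 1 array, numbered within its group (on the right for Villus only), all axes logarithmic. GFPbright 2 is the lowest of its group for both measures on the left, and the 3 Villus arrays stand alone at the upper right on the right.

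Of the other 6 genes grouped as targets, Hes6 was lower and Hey1 higher in the hair follicle than in GFPbright, and 4 did not pass there. Hes6, a Hes family member that counters Hes1, read 319, 361, 307 and 277 in GFPbright, 158, 182 and 175 in GFPdim, 116, 115 and 128 in Villus and 45.4, 51.4 and 40.4 in the hair follicle. All 4 groups were apart from each other, in this order. GFPdim was 1.83-fold lower than GFPbright (-0.87 ± 0.12, adjusted p = 0.000261), and Villus was lower than GFPdim by a further 0.52 (-0.52 ± 0.13, adjusted p = 0.00529). Without the 3 arrays with conflicting labels, which leaves GFPdim 1 as the only GFPdim array, Villus against GFPdim gave -0.41. The hair follicle was 6.91-fold lower than GFPbright (-2.79 ± 0.12, adjusted p = 1.76e-10). Nrarp, a feedback inhibitor of the pathway, read 188, 279, 215 and 219.5 in GFPbright, 186, 170.3 and 177 in GFPdim, 63.6, 91.8 and 59.4 in Villus and 131, 167 and 234 in the hair follicle. Villus lay below all other arrays, 2.53-fold below GFPdim (-1.34 ± 0.22, adjusted p = 0.000149) and 3.17-fold below GFPbright (adjusted p = 6.66e-06). The hair follicle against GFPbright gave -0.37 (adjusted p = 0.16), and -0.59 without hair follicle 3 (adjusted p = 0.0259).

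Hey1, a repressor of the Hey family, read 69, 58.8 and 58.3 in the hair follicle and 10, 10.1, 9 and 12.7 in GFPbright. It read 11.9, 11.6 and 13.2 in GFPdim and 6.2, 8.3 and 6.4 in Villus, with 1 of 3 Villus arrays above the receptor level. The hair follicle was 5.97-fold above GFPbright (2.58 ± 0.14, adjusted p = 2.22e-09), and Villus was lower than GFPdim (-0.82 ± 0.15, adjusted p = 0.000525). Heyl read 4.7 to 6.5 in both crypt groups and 4.8 to 5.6 in the hair follicle, all under the receptor level. In Villus it read 9.4, 7.9 and 7.5, at least 1.09-fold above GFPbright (adjusted p = 0.0013). Both of its other probe sets were above the receptor level on no array, and their Villus values of 4.8 to 6.0 overlapped those of GFPbright. Hes5 read 6.8 to 8.3 in GFPbright and 5.3 to 5.8 in Villus, a difference of -0.41 ± 0.12 (adjusted p = 0.0107) with all Villus arrays and 3 of 4 GFPbright arrays under the receptor level. Hey2 was above it on no array. The summed intensity of 9 connective tissue genes was 322.4, 472.9 and 61.9 on Villus 1 to 3 and 50.9 to 122.3 in GFPbright, with Col1a1, Col1a2 and Pdgfra above the receptor level on no array of either group. Its part in the value of Heyl was not tested.

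Among the modulators the Deltex genes, which encode ubiquitin ligases that act on Notch, moved apart. Dtx4 read 406, 358, 481 and 307 in GFPbright, 128, 213 and 131 in GFPdim, 29.9, 40 and 31 in Villus and 20, 21 and 11.7 in the hair follicle. Its 4 groups did not overlap. It was 2.51-fold lower in GFPdim than in GFPbright (-1.33 ± 0.24, adjusted p = 0.00162), 4.58-fold lower in Villus than in GFPdim (-2.19 ± 0.25, adjusted p = 6.87e-06) and 22.5-fold lower in the hair follicle than in GFPbright (-4.49 ± 0.24, adjusted p = 1.21e-09). Dtx2 and Dtx3 were highest in the hair follicle. Dtx2 read 258, 152 and 205 there and 37.3 to 54.4 on the intestinal arrays (4.38-fold above GFPbright, adjusted p = 2.58e-07), and Dtx3 read 59, 65.9 and 64.3 there and 10.4 to 13.8 in the intestine (5.24-fold, adjusted p = 2.14e-10). Dtx3 was also higher in Villus than in GFPdim (0.31 ± 0.12, adjusted p = 0.0452), a call lost under 13 of 21 alternatives, with adjusted p of 0.0516 to 0.141 when any one of GFPbright 1, 3 or 4, the 3 GFPdim arrays, Villus 1 or 2 or hair follicle 3 was left out.

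Dtx1 was higher in Villus than anywhere else, at 48.5, 36.3 and 20.6 against 5.5 to 9.5 on the other 10 arrays, 4.44-fold above GFPbright (2.15 ± 0.24, adjusted p = 3.27e-06). Dtx1 is also known from T lymphocytes. The 8 lymphocyte genes measured were all above the receptor level on every Villus array, with a summed intensity of 2500.7, 2580.1 and 1758.2 on Villus 1 to 3 and 44.0 to 58.2 on all other arrays, where Ptprc, Cd3g and Cd8a were above that level on no array. Villus 3 was lowest for Dtx1 and for this sum. The part of lymphocytes in the values of Dtx1 was not tested.

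Numb, an inhibitor that is handed to 1 daughter cell at division, read 152, 146, 189 and 151 in GFPbright, 152, 207 and 183 in GFPdim, 505, 579.5 and 568.3 in Villus and 184, 153 and 186 in the hair follicle. Only the Villus arrays were apart from the others. They were 3.07-fold above GFPdim (1.62 ± 0.15, adjusted p = 7.14e-07) and 3.47-fold above GFPbright (1.79 ± 0.14, adjusted p = 6.68e-08). Its relative Numbl read 7.5 to 9.2 in the intestine and 16, 15.6 and 17.9 in the hair follicle (2.04-fold above GFPbright, 1.03 ± 0.11, adjusted p = 1.56e-06).

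Atoh1 (chr6:64729125-64731245, plus strand, GRCm38.p6) had the largest rise of any member in GFPdim. It read 16.9, 30.9, 34.2 and 23 in GFPbright, 106, 137 and 116 in GFPdim, 81.4, 91.3 and 71.5 in Villus and 7.3, 6.9 and 7.7, around the receptor level, in the hair follicle. No 2 groups overlapped. GFPdim was 4.7-fold above GFPbright (2.23 ± 0.20, adjusted p = 4.9e-06) and Villus was 3.2-fold above GFPbright (1.68 ± 0.20, adjusted p = 6.91e-06). Villus against GFPdim gave -0.56 ± 0.22 (adjusted p = 0.0562), and -0.58 with the sort as a block (adjusted p = 0.044), with adjusted p = 0.0163 and 0.0355 without GFPbright 1 and GFPbright 3. The hair follicle was 3.47-fold below GFPbright (-1.80 ± 0.20, adjusted p = 3.88e-06).

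Transcription factors of the secretory lineages, which act beside or after Atoh1, were taken as a list of 18 genes, of which 17 were measured. In GFPdim against GFPbright 11 were higher, 1 was lower and 5 did not pass, where 6.32% of all genes were higher and 10.4% lower, with a median log2 difference of 1.74 against -0.04 for all genes. Spdef, a factor of goblet and Paneth cells, rose from 9.7, 15, 22.1 and 12.2 to 149, 162 and 159 (11.1-fold, 3.47 ± 0.21, adjusted p = 1.07e-07). Neurod1, an enteroendocrine factor, rose from 12, 19.9, 16 and 13.8 to 126, 145 and 149 (9.2-fold, adjusted p = 2e-06). Isl1 was higher by 2.61 ± 0.16 (adjusted p = 1.46e-07) and Insm1 by 2.42 ± 0.14 (adjusted p = 7.62e-08), both factors of endocrine cells. Sox4, also expressed in progenitors, fell from 1972, 1674, 1878 and 2003 to 663, 623 and 538 (3.1-fold, adjusted p = 9.43e-06).

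In Villus against GFPdim 13 of the 17 factors were lower and none was higher, where 21.3% of all genes were lower and 20.8% higher. Neurog3, which marks endocrine progenitors, read 242, 124 and 206 in GFPdim and 3.8, 4 and 4.8 in Villus, at least 24.3-fold lower (adjusted p = 1.77e-08). Sox4 was 15.1-fold lower (adjusted p = 5.65e-10). Against GFPbright, Villus was higher for 4 factors, such as Neurod1 (5.14-fold, adjusted p = 3.1e-06) and Gfi1 (at least 1.51-fold, adjusted p = 1.05e-05), and lower for 5. Of all genes, 22.6% were higher and 26.3% lower in that comparison. In the hair follicle 6 were lower than in GFPbright and none was higher, where 29.1% of all genes were lower and 19.4% higher.

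**Figure D4:**
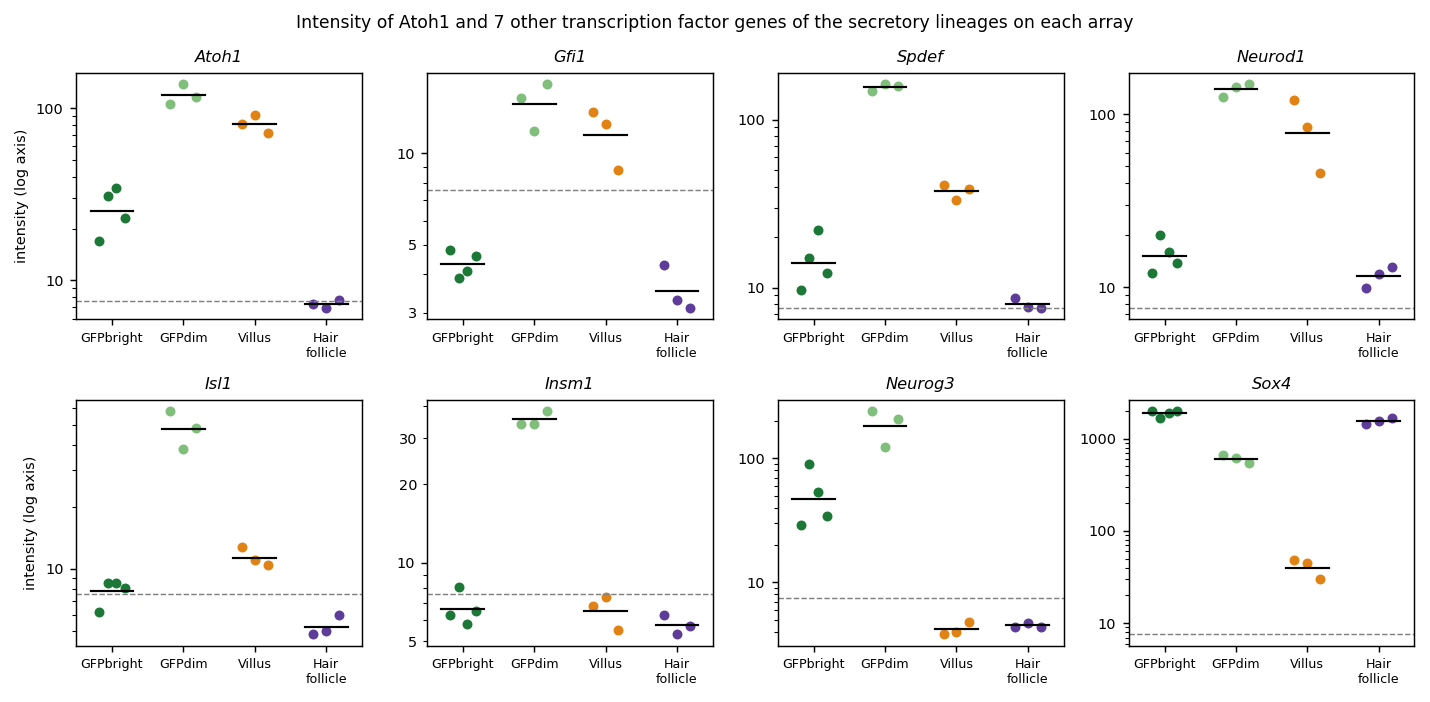
Intensity (log y axes, which differ between panels) of Atoh1 and 7 other transcription factor genes of the secretory lineages on each array, by group (x axes), with the mean of the log2 values as a bar and the receptor level of 7.55 as a dashed line. All but Sox4 are highest in GFPdim, Neurog3 is under the line in Villus, and Sox4 falls from GFPbright to GFPdim to Villus.

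Other genes of the pathway were taken as a list of 44, of which 35 were measured. In GFPdim against GFPbright 2 were higher and 3 lower, in Villus against GFPdim 10 and 9, in Villus against GFPbright 13 and 9, and in the hair follicle against GFPbright 9 and 7. The share that passed was 14.3%, 54.3%, 62.9% and 45.7% in this order, beside 16.7%, 42.1%, 48.9% and 48.6% of all genes and 23.3%, 57.2%, 65.8% and 66.1% of genes above the receptor level, and nothing particular to the list is read from it. In GFPdim the 3 lower genes were Poglut1, an enzyme that adds glucose to the receptor (-1.06 ± 0.13, adjusted p = 7.44e-05), the ubiquitin ligase Nedd4 (-0.95 ± 0.18, adjusted p = 0.00214) and Mib1, a ligase that sends ligands into endocytosis (-0.59 ± 0.19, adjusted p = 0.047). The 2 higher genes were Bhlhe40, a transcription factor related to the Hes family (0.75 ± 0.20, adjusted p = 0.0193), and the atypical ligand Dner (0.53 ± 0.13, adjusted p = 0.0109), which was under the receptor level on every GFPbright array. This count of 5 lay between 3 and 9 under other settings.

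In Villus the lower genes were led by the same ligase. Nedd4 read 868, 745, 562 and 749 in GFPbright, 403, 339.6 and 386 in GFPdim and 50.6, 56.6 and 60.9 in Villus, 12.9-fold below GFPbright (adjusted p = 4.89e-10). Poglut1 was 7.65-fold below GFPbright in Villus (adjusted p = 2.47e-10), and Kat2a, a histone acetyltransferase, was at least 5.58-fold below it (adjusted p = 4.67e-06). Of 7 corepressor genes, 4 (57.1%) were lower in Villus than in GFPbright and none was higher. Of all genes, 26.3% were lower and 22.6% higher, and 65.8% of genes above the receptor level passed. Nothing particular to the corepressors is read from this count. Hdac2, a histone deacetylase, read 227, 306, 245 and 296 in GFPbright and 45.7, 33.7 and 38.5 in Villus (6.83-fold, adjusted p = 6.83e-07). Villus was higher than GFPbright for Neurl1b, a ligase for ligands (3.37-fold, adjusted p = 2.72e-07), for the acetyltransferase Kat2b (2.63-fold, adjusted p = 1.78e-05) and for Furin, the protease that processes the receptor on its way to the surface (2.6-fold, adjusted p = 1.41e-07). Furin was also higher in the hair follicle (2.37-fold, adjusted p = 4.46e-07), as were the gamma-secretase subunit genes Aph1b (4.09-fold, adjusted p = 2.38e-08) and Aph1c (2.85-fold, adjusted p = 2.57e-06), near copies of each other whose probe sets may not tell them apart.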

How the data were processed

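RNA of 13 samples was hybridised to Affymetrix HT MG-430 PM arrays. The authors ran Affymetrix Power Tools (RMA-sketch: background correction, normalization between arrays and summary per probe set) and deposited linear intensities. The sources used here give no version of that software. Such a procedure compresses low intensities, so folds of dim genes are likely understated. Intensities were taken to log2 with nothing added. The 45141 probe sets comprise 28898 that name 1 gene, 551 that name several and 15692 that the name table does not list. A gene with several was read by the one of highest mean, for 17097 genes in all.

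The 4 groups, taken from the titles and source names of the arrays, were fitted together with limma (version 3.58.1 in R 4.3.3), Benjamini-Hochberg adjustment ran over every gene of the table, and a gene was called below an adjusted p of 0.05. All p values given are adjusted ones. A fold is "at least" where the dim group was above the receptor level on no array, and then uses that level in its place. The fit was tested on simulated data. Probe sets of 1 gene were not compared in level with those of another gene.

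All 33 members are accounted for. Of the other lists, up to 4 called genes in each direction with the largest difference were eligible to be named in a comparison. The members and lists were chosen with earlier results of these data known. By a code in the titles, 3 sorts gave both a GFPbright and a GFPdim array. The residuals of such pairs correlated at 0.291, 0.451 and 0.32, so the sort was taken as a pairing, and a fit with the sort as a replicate block was run as an alternative. For GFPdim against GFPbright each sort had its own fixed term in that fit, so that only sorts with both arrays count. For the other comparisons the sort was a random block. Other alternatives were the mean of all probe sets of a gene, 16 added before log2 and quantile normalization. Further ones used only genes above the receptor level, only the 2 groups compared, or eBayes with trend and robust settings. The 3 crypt arrays with conflicting labels were also left out, which leaves GFPdim 1 as the only GFPdim array, and each array was left out in turn. Counts and ranges over the alternatives include all of these fits. With 3 or 4 arrays in a group, the number of arrays limits the precision. Python 3.11.15 and matplotlib 3.10.9 served for tables and figures.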

Additional observations from a re-analysis of the deposited data

Results flagged for a closer look

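Within the 4 GFPbright arrays, 1 array lay far from the other 3 for 3 of the 32 measured members, by Dixon's ratio of the gap to the range. Chance flags about 1 in 20 such groups. Lfng read 8.7 in GFPbright 1, and 12.5 to 12.7 in the others. Maml1 read 55.7 in GFPbright 2, and 69.8 to 72.1 in the others. Numb read 188.7 in GFPbright 3, and 145.9 to 151.9 in the others. All of these values were above the receptor level.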

How the results depend on the processing

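None of the 61 called differences of members changed sign under an alternative run, and 47 were called under each of them. Of the 67 differences not called, 31 took both signs over the alternatives, such as Jag1 in GFPdim against GFPbright (-0.87 to 0.57) and Aph1a in the same comparison (-0.24 to 0.44). When each array was left out in turn, the number of members called was 7 to 9 in GFPdim against GFPbright, 13 to 16 in Villus against GFPdim, 17 to 20 in Villus against GFPbright, 18 to 20 in the hair follicle against GFPbright and 26 to 27 over the 4 groups. Under the other alternatives these counts were 6 to 9, 13 to 17, 20, 18 to 19 and 26 to 27. With the sort as a replicate block, 9, 17, 20 and 18 members were called, and Hes1, Adam17 and Atoh1 were the members whose call changed. The count of other pathway genes in GFPdim against GFPbright, 5, was 3 with the mean of all probe sets, 9 with the replicate block, 8 with only the 2 groups compared and 3 to 9 when an array was left out. The alternatives for this list were added after seeing the data. Beside those of Jag1, Hes1, Adam17 and Atoh1 given with their values above, differences that were not called but passed when 1 array was left out were those of Nrarp in the hair follicle against GFPbright (adjusted p = 0.0259 without hair follicle 3), Rbpj in GFPdim against GFPbright (adjusted p = 0.0362 without Villus 3), Aph1a in Villus against GFPdim (adjusted p = 0.0223 without GFPdim 2), Dll3 in the same comparison (adjusted p = 0.0289 without GFPdim 1), and Ncstn and Mfng in the hair follicle against GFPbright without GFPbright 3 (adjusted p = 0.0423 and 0.0173; Mfng also without Villus 1, adjusted p = 0.0434). The cause of these changes was not tested. Dim members near the receptor level, such as Dll3, Hes5 and Mfng, have little signal over background, and their differences are the least certain.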

Other observations

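Further probe sets, which the comparisons above did not use, exist for 20 of the 32 measured members. For Notch1 the other probe set read 94.7, 121.7, 55.5 and 89.0 in GFPbright, 19.3, 30.7 and 34.4 in GFPdim, 20.2, 26.9 and 24.0 in Villus and 202.5, 191.9 and 173.3 in the hair follicle. Its GFPdim and Villus values overlapped, unlike those of the probe set used. For Jag1 the other probe set read 84.8, 50.1 and 44.8 in the hair follicle and 5.5 to 8.5 on the intestinal arrays. For Dtx4 it read 31.0 to 35.4 in GFPbright, 15.3 to 18.3 in GFPdim, 10.1 to 14.9 in Villus and 8.1 to 10.2 in the hair follicle. For Dtx1 it read 3.6 to 6.0 over all 13 arrays, under the receptor level, with no higher values in Villus. For Adam10, which has 3 probe sets, 1 followed the one used, at 93.7 to 126.0 in Villus and 26.7 to 45.4 in the hair follicle, and the other read 9.8 to 16 over all arrays with overlap between the groups.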
